A study of Mus musculus with 3 samples.

Results

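Collagens are the structural proteins of the extracellular matrix, and the genes described here are all those whose symbol follows the collagen pattern Col, number, a, number. The feature list held 44 such genes among 19070 features. They comprised 11 fibrillar chains, 6 type IV chains of basement membranes, 9 FACIT chains, 4 transmembrane chains, 6 type VI chains, 3 network chains of types VIII and X, 2 multiplexins, the anchoring fibril chain Col7a1, and Col26a1 and Col28a1. The rule used the gene symbol alone, though it was set with earlier results of these data known. Each gene had at least 31 UMIs (unique molecular identifiers, the counted molecules) over the 3 libraries, so none fell under the 20 UMIs below which a member would be called not measurable.

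Collagen chains wind around each other into a helix, which needs proline and lysine hydroxylation in the endoplasmic reticulum, and are trimmed and crosslinked outside the cell. Fibrillar chains build the rope-like fibrils of dermis and scar, FACIT chains sit on fibril surfaces, and type IV chains form the sheet under epithelia and around vessels. In skin, the transmembrane collagen Col17a1 and the anchoring fibril collagen Col7a1 hold the epidermis to the dermis.

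The samples were splinted dorsal wounds of 5 mm through the full skin thickness on female mice of strain C57BL/6J (postnatal day 50), taken 5 days after wounding with a margin of 2 mm, so that every library mixed wound bed with surrounding skin. One wound group received no gel (titled Sham, called untreated here), another received 20 µL of gelatin methacryloyl (GelMA, a gelatin that sets under light) crosslinked with ultraviolet light for 1 min, and the last received GelMA carrying apoptotic neutrophils (AN-GelMA), set in the same way. Untreated wounds differed from the others in both gel and light, and the labels do not state where the neutrophils came from or how they were made apoptotic. Each group is 1 library, and the number of mice behind it is not stated.

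With 1 library per group there is no replicate check: animal, skin piece and treatment cannot be told apart, and no p-value was computed. Levels are in CPM, UMIs scaled to the total of the class in its library. Intervals are exact 95% intervals that cover counting error only. Ratios are log2 differences in CPM, and a gene is counted as higher or lower at a ratio of 1.5 times or more with at least 20 UMIs over both libraries. The assay reads probe pairs in fixed cells, so CPM of different genes depend on their probes and were compared only as ratios between libraries or cell groups. Library totals were 8945496 UMIs for untreated, 21613482 for GelMA and 14156692 for AN-GelMA. After filters 5737, 10737 and 9131 cells remained, and 33 of 34 clusters, made without the collagen genes, were named into 14 classes. Hair-forming cells numbered 197, 2880 and 48, so the GelMA tissue held many more of them.

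Reference sequences of 4 promoters are shown for the chains that lead the fibroblast and keratinocyte results, and the start region of the type IV pair for its shared position. All come from RefSeq on GRCm38.p6, where 35 of the 44 genes had an entry, in 38 windows of 300 bases. Col1a1, Col2a1, Col4a3, Col5a2, Col9a3, Col12a1, Col14a1, Col22a1 and Col26a1 had none. Capitals in the promoters, each the 120 bases before the annotated start, mark the CCAAT box, the TATA box (searched as TATAAA) and the GC box (searched as GGGCGG) on either strand.
Col1a2, chr6:4505498-4505617, plus strand: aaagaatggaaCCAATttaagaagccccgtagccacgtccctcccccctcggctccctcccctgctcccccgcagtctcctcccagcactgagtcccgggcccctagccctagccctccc
Col3a1, chr1:45311418-45311537, plus strand: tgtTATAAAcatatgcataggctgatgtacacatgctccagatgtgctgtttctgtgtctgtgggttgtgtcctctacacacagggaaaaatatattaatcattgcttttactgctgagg
Col7a1, chr9:108953466-108953585, plus strand: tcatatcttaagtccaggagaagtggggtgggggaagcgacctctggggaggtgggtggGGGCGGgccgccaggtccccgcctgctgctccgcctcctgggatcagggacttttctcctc
Col17a1, chr19:47692043-47692162, minus strand: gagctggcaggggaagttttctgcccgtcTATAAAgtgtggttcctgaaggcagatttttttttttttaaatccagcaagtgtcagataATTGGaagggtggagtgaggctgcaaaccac
Col4a1 and Col4a2, chr8:11312801-11312830, plus strand: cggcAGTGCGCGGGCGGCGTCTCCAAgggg

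In the type IV sequence the 22 capitals run from the annotated first base of Col4a2, read to the right, to that of Col4a1, read to the left, so the genes lie head to head with overlapping starts. CCAAT or its reverse ATTGG was found in 13 of the 38 collagen windows (34.2%) and in 37.4% of all 32851 promoter windows of that length. TATAAA or TTTATA was found in 13.2% and 13.6%. GGGCGG or CCGCCC was found in 60.5% and 35.7%. Matches of TATAAA on opposite strands can overlap. A match is a description of these windows, not a binding site.

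Collagens made up 0.789% of the kept UMIs of the untreated library, 0.242% of GelMA and 0.850% of AN-GelMA. Fibroblasts held 73.2%, 47.7% and 80.1% of these collagen UMIs, and keratinocytes 13.6%, 31.7% and 12.6%. The low share in GelMA therefore went with fewer fibroblasts, 738 of 10737 cells against 1094 of 5737 and 2046 of 9131, as well as with the lower level per fibroblast given below.

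Classes were ranked by mean CPM for each gene, leaving out adipocytes (26, 72 and 23 cells) and melanocytes (26, 86 and 32 cells). Of the 35 genes with 100 or more UMIs, 15 were highest in fibroblasts and 6 in pericytes or smooth muscle. Another 5 were highest in Schwann cells, 3 in skeletal muscle, 2 in blood endothelium and 2 in hair-forming cells. Keratinocytes and T, NK or innate lymphoid cells led for 1 each. The leads below hold among the ranked classes only. Fibroblasts led for Col1a1, Col1a2, Col3a1, Col5a1, Col5a2, Col24a1, Col9a3, Col12a1, Col14a1, Col16a1, Col6a1, Col6a2, Col6a6, Col8a1 and Col7a1. Pericytes or smooth muscle led for Col5a3, Col4a2, Col4a5, Col4a6, Col6a3 and Col18a1, endothelium for Col4a1 and Col15a1, muscle for Col20a1, Col13a1 and Col23a1, hair-forming cells for Col11a2 and Col4a4, and keratinocytes for Col17a1. Schwann cells led for Col11a1, Col19a1, Col25a1, Col26a1 and Col28a1, on only 12 to 31 UMIs each. Some leads were narrow: Col6a1 was 1374 CPM in fibroblasts and 1353 CPM in pericytes, as means over libraries, and Col4a1 was 2373 CPM in endothelium and 2224 CPM in pericytes. Col9a3 was highest in fibroblasts in 0 of 3 libraries and Col27a1 in lymphoid cells in 1 of 3. The leading classes of Col11a1, Col4a4, Col4a5, Col4a6, Col6a1, Col6a2 and Col8a1 were also highest in only 1 of 3 libraries. For Col4a5 and Col4a6 the pericyte lead rested on 6 and 13 UMIs.

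**Figure D1:**
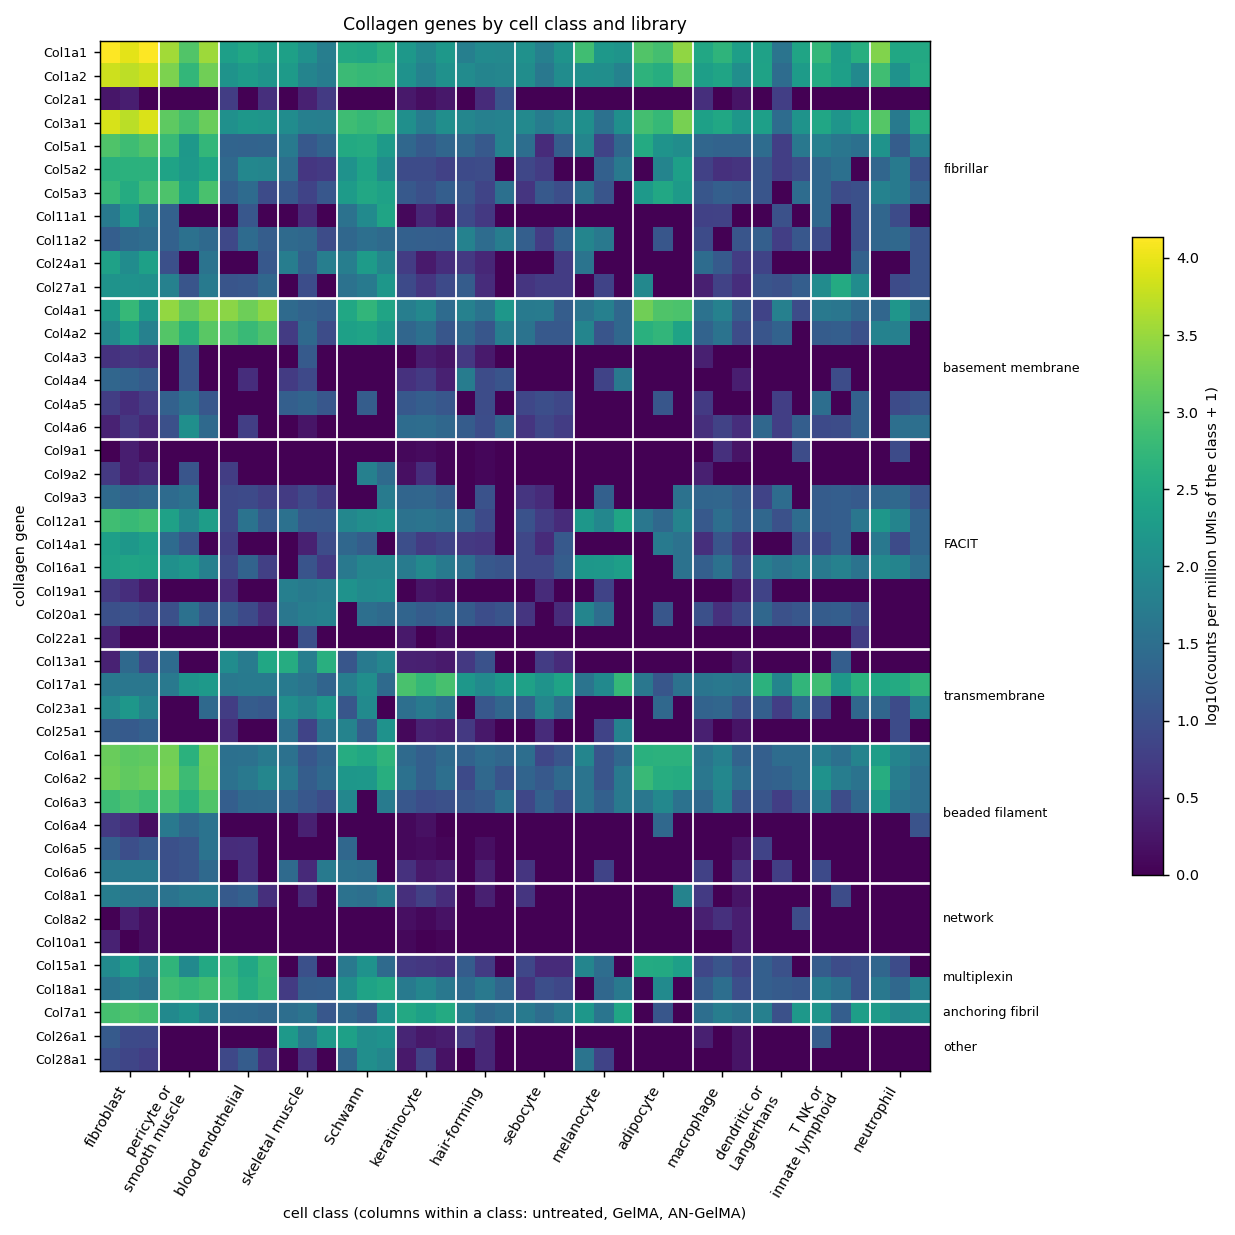
Each row is 1 collagen gene and each block of 3 columns 1 cell class, in the order untreated, GelMA, AN-GelMA; color is log10(CPM + 1). Col1a1, Col1a2, Col3a1 and Col12a1 are brightest in fibroblasts, Col4a1 and Col4a2 in endothelium and pericytes, and Col17a1 in keratinocytes.

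Fibrillar chains were also counted, at far lower levels, in epithelial and immune classes. In sebocytes, which are not known to make them, the fibrillar sum was 377, 189.5 and 370.2 CPM in untreated, GelMA and AN-GelMA cells. In keratinocytes it was 480, 265 and 466 CPM. Both were lowest in GelMA, as was the library-wide collagen share, while the macrophage sum was highest there, at 814, 1100 and 532 CPM. Col1a1 per Col1a2 UMIs were 2.04, 1.74 and 2.00 in fibroblasts and 1.24, 1.29 and 1.32 in keratinocytes. Whether these UMIs arose in the cells that carried them was not tested, and they are not read as expression.

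The fibrillar chains were the largest part of the fibroblast collagen count and were lower in GelMA than in the other libraries. Col1a1, a chain of type I collagen, was 13729 CPM in untreated, 9385 CPM in GelMA and 13261 CPM in AN-GelMA fibroblasts. Its partner Col1a2 was 6725, 5383 and 6629 CPM. Untreated and AN-GelMA lay close together and GelMA stood below them for both chains. Col3a1, the chain of type III collagen that is abundant in early wounds, was 7590, 5184 and 8088 CPM. Its log2 ratio was 0.64 (0.59 to 0.69) for AN-GelMA over GelMA and -0.55 (-0.60 to -0.50) for GelMA over untreated. Col5a1, of type V collagen that nucleates fibrils, was 985, 713 and 1001 CPM.

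Not every fibrillar chain took part. Col5a2 was 427, 446 and 455.5 CPM and Col27a1 131, 126 and 120 CPM, with intervals of every ratio that include 0. Col5a3 was 600, 352 and 679 CPM, a log2 ratio of 0.95 (0.77 to 1.14) for AN-GelMA over GelMA. Col24a1 was 233, 103 and 228 CPM, a ratio of 1.14 (0.81 to 1.49). Col11a1, a chain of type XI collagen, went the other way, at 48.35, 169 and 39.9 CPM, a ratio of -2.08 (-2.47 to -1.70). Col11a2 had 21, 20 and 72 UMIs, or 16.1, 24.9 and 29.3 CPM.

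The fibrillar sum was 30485 CPM in untreated, 21887.5 CPM in GelMA and 30531 CPM in AN-GelMA fibroblasts. Its log2 ratio was 0.48 (0.46 to 0.50) for AN-GelMA over GelMA, -0.48 (-0.50 to -0.45) for GelMA over untreated and 0.00 (-0.02 to 0.02) for AN-GelMA over untreated. The first 2 lie short of 1.5 times with class totals, and past it with edgeR TMM factors (0.67 and -0.60) or DESeq2 size factors (0.64 and -0.60). The median ratio of all genes measured in fibroblasts was -0.12 for AN-GelMA over GelMA, 0.10 for GelMA over untreated and -0.01 for AN-GelMA over untreated.

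**Figure D2:**
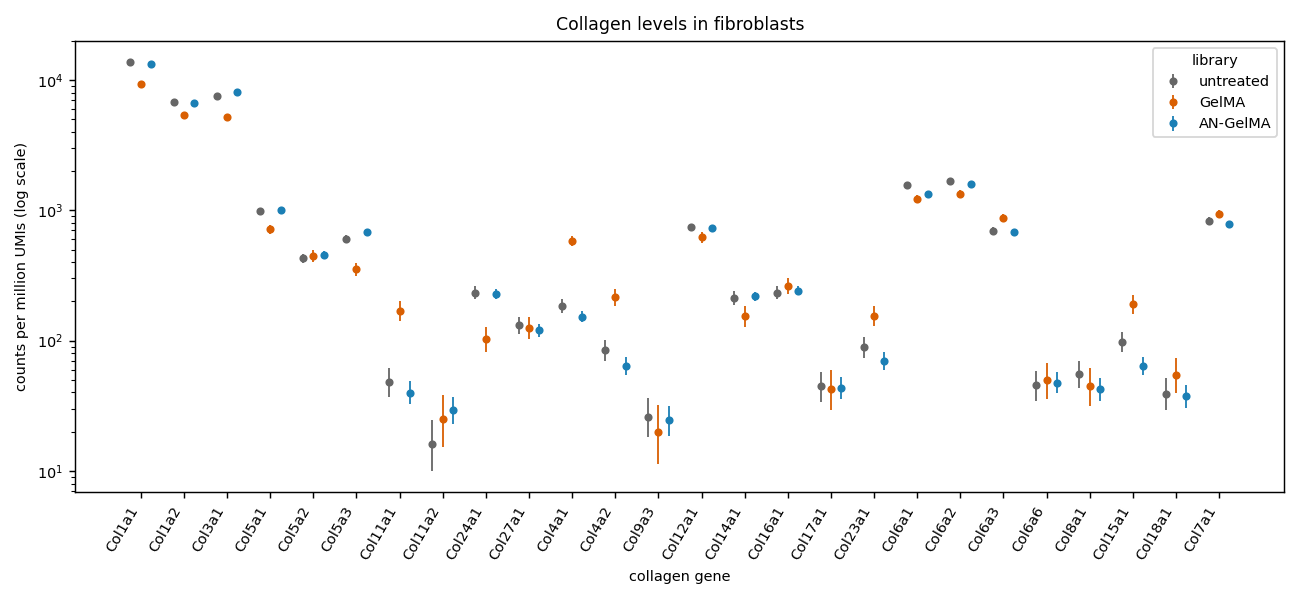
CPM (log scale) in fibroblasts for the collagen genes with 100 or more UMIs over the 3 libraries; points are libraries and bars exact 95% counting intervals. GelMA lies below the others for Col1a1, Col3a1, Col5a3 and Col24a1 and above them for Col11a1, Col4a1, Col4a2 and Col15a1.

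Basement membrane chains went the opposite way in the same fibroblasts. Col4a1, a main type IV chain, was 185, 583 and 153 CPM in untreated, GelMA and AN-GelMA, and Col4a2, its partner from the shared start region above, was 84.4, 215 and 63.9 CPM. The ratio for AN-GelMA over GelMA was -1.93 (-2.13 to -1.73) for Col4a1 and -1.75 (-2.07 to -1.43) for Col4a2. GelMA alone was high for both, and the Col4a1 per Col4a2 UMI ratio stayed between 2.19 and 2.71. The multiplexin Col15a1, which sits between basement membrane and fibrils, was 97.5, 190 and 64.3 CPM. The other multiplexin, Col18a1, the source of endostatin, was 39.1, 54.7 and 37.45 CPM, with intervals of each ratio that include 0.

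In the remaining fibroblast groups the chains named here stayed within 1.5 times, apart from Col23a1. The FACIT sum was 1234, 1071 and 1223 CPM, with a ratio of 0.19 (0.08 to 0.30) for AN-GelMA over GelMA and -0.20 (-0.33 to -0.08) for GelMA over untreated. Within it Col12a1 was 743, 619 and 728 CPM, Col14a1 213, 154 and 218 CPM, Col16a1 233, 263 and 241 CPM, and Col9a3 26.1, 19.9 and 24.4 CPM. None of the 4 passed 1.5 times. The type VI chains, which form beaded microfilaments around cells, were 1565, 1225 and 1332 CPM for Col6a1, 1671, 1343 and 1583 CPM for Col6a2, 698, 876 and 679 CPM for Col6a3, and 45.3, 49.7 and 47.6 CPM for Col6a6. Col7a1 was 830, 938 and 790.5 CPM and the network chain Col8a1 55.3, 44.7 and 42.3 CPM. Among transmembrane chains Col17a1 was even at 44.5, 42.25 and 43.15 CPM, with a UMI in 3.93% to 4.15% of fibroblasts against 2.79% to 3.77% of macrophages, so it is read as near background, and Col23a1 was 89.0, 155 and 70.0 CPM.

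Counted over members, 32 of the 44 genes were measured in fibroblasts in each comparison. For AN-GelMA over GelMA 3 were higher (Col3a1, Col5a3 and Col24a1), where 10.4% of all 10819 measured genes were, and 6 were lower (Col4a1, Col4a2, Col11a1, Col13a1, Col15a1 and Col23a1), where 19.9% were. For GelMA over untreated 7 were higher (Col4a1, Col4a2, Col11a1, Col11a2, Col13a1, Col15a1 and Col23a1) against a background of 18.6%, and 4 lower (Col5a3, Col24a1, Col6a5 and Col26a1) against 10.2%. For AN-GelMA over untreated 1 was higher (Col11a2) against 5.02% and 4 were lower (Col4a4, Col15a1, Col26a1 and Col28a1) against 6.39%. The 4 of 32 lower in AN-GelMA than in untreated is above its background, on 3 genes with few UMIs and Col15a1; the 3 of 32 higher for AN-GelMA over GelMA lies near its own, and no pattern particular to collagens is read from these counts. The members' median ratios were 0.00, -0.12 and -0.07. With either edgeR TMM or DESeq2 factors the split was 7 higher and 6 lower for AN-GelMA over GelMA, and 6 higher and 8 lower for GelMA over untreated. Col13a1, Col6a5, Col26a1, Col4a4 and Col28a1 had under 100 UMIs here and are named for the counts alone.

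Markers of other cells also differed between the fibroblast libraries. The 15 hair-forming markers with a probe summed to 142, 1397 and 35.4 CPM, with 2, 0 and 5 of them at 0. The 14 keratinocyte markers summed to 550, 1125 and 635 CPM with none at 0. The 16 fibroblast markers were 6377, 6054 and 6977 CPM. In GelMA, Col4a1 was 583 CPM in fibroblasts. It was 83.2 CPM in all keratinocytes, with a higher level in their Tbx1-led cluster described below. The part of the first 2 lists in the collagen differences was not tested.

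Fibroblasts fell into 4 clusters whose collagen levels differed. One was led by Pi16, Tnxb and Fbn1 (440, 365 and 1000 cells), another by Postn, Tnn and Thbs2 (435, 282 and 642), another by Nos2 and Saa3 (195, 24 and 392), and the last by Corin, Alx4 and Rspo3 (24, 67 and 12). Of 24 collagen genes with 20 UMIs over the Pi16 and Postn clusters in every library, 10 were at least 1.5 times higher in the Postn cluster in all 3 libraries (Col1a1, Col1a2, Col11a1, Col24a1, Col12a1, Col16a1, Col6a1, Col6a2, Col7a1 and Col23a1). Another 3 were lower in all 3 (Col4a1, Col6a6 and Col14a1). Cells of a cluster are alike by construction, so these contrasts are descriptions. The share of all genes passing the same rule between these clusters was not computed. The counts of 10 and 3 are therefore not read as particular to collagens.

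Col7a1 showed the widest contrast: 1875, 2298 and 2177 CPM in the Postn cluster against 49.45, 36.9 and 30.04 CPM in the Pi16 cluster, or 37.9, 62.4 and 72.5 times. Although best known from keratinocytes, it was 2.93 times as high in all fibroblasts as in all keratinocytes, at 853 and 291 CPM as means over libraries. Keratinocytes still held more of its UMIs, 51.9%, 67.7% and 52.3% against 42.2%, 23.6% and 42.35% in fibroblasts. In the basal keratinocyte cluster, described below, its level was above that of all fibroblasts in each library. The balance of the fibril-surface chains differed between the clusters. There were 15.2, 19.8 and 20.4 Col12a1 UMIs for each Col14a1 UMI in the Postn cluster and 0.324, 0.393 and 0.282 in the Pi16 cluster. The type III to type I balance also differed, with 0.947, 0.8125 and 0.877 Col3a1 UMIs per Col1a1 UMI in the Pi16 cluster and 0.347, 0.376 and 0.338 in the Postn cluster. In all 3 libraries the cluster difference in these ratios was larger than any difference between libraries.

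**Figure D3:**
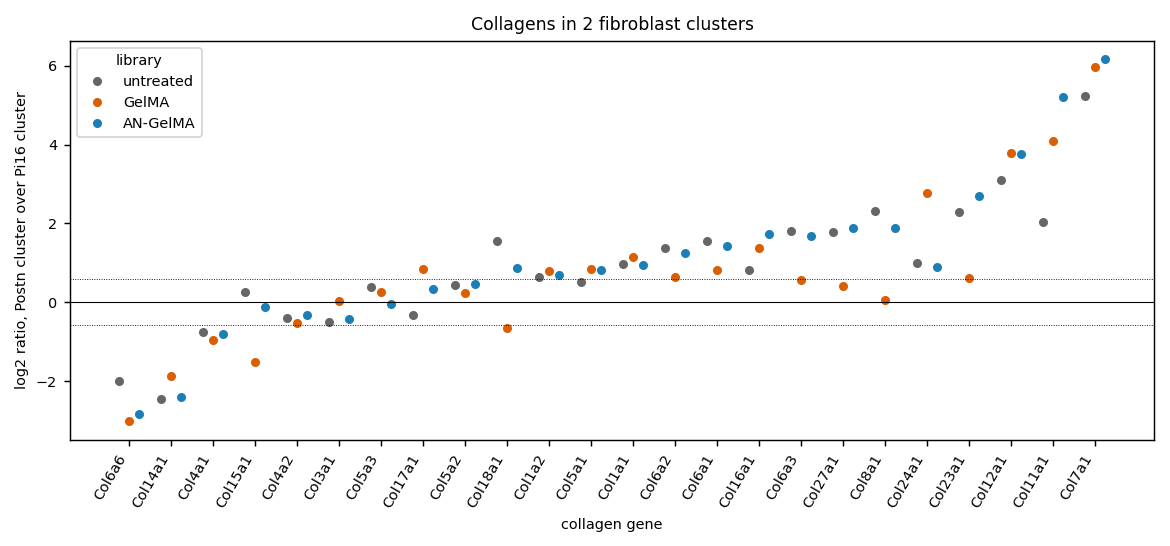
Log2 ratio of CPM in the Postn-led over the Pi16-led fibroblast cluster for 24 collagen genes, 1 point per library; dotted lines mark 1.5 times. Col6a6 and Col14a1 lie lowest and Col7a1 highest in each library.

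The library differences were then read inside each cluster. The fibrillar sum in the Pi16 cluster was 24589, 18361 and 24811.5 CPM, a ratio of 0.43 (0.39 to 0.47) for AN-GelMA over GelMA. In the Postn cluster it was 34569.9, 31254 and 35828 CPM, a ratio of 0.20 (0.16 to 0.23). Col3a1 followed the same split, with 8540, 5518 and 8271 CPM in the Pi16 cluster and 6080, 5669 and 6175 CPM in the Postn cluster. GelMA was lowest in both clusters and further below the others in the Pi16 cluster; whether the clusters differ in this was not tested. The type IV difference was alike in both, at -1.75 (-1.96 to -1.53) and -1.71 (-2.02 to -1.40) for AN-GelMA over GelMA.

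Some class-level ratios did not hold inside clusters. Col23a1 was lower in AN-GelMA than in GelMA in all fibroblasts, at -1.15 (-1.49 to -0.81), but higher in the Postn cluster, at 1.41 (0.69 to 2.21) from 149.8 and 56.4 CPM. The Corin cluster held it at 1266, 985 and 788 CPM and made up 2.19%, 9.08% and 0.5865% of fibroblasts. Col15a1, at 881, 599 and 1050 CPM in the Corin cluster, had a ratio of -1.51 (-1.99 to -1.02) for AN-GelMA over GelMA in the Pi16 cluster and -0.11 (-0.83 to 0.65) in the Postn cluster. Col6a3 was 328, 734 and 376 CPM in the Pi16 cluster and 1149, 1085 and 1197 CPM in the Postn cluster. Col11a1 was 84.05, 339 and 108 CPM in the Postn cluster. The Nos2 cluster had 24 cells in GelMA and was compared only between the others, where its fibrillar sum was 35000.1 CPM untreated and 33575 CPM in AN-GelMA, -0.06 (-0.10 to -0.02).

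Genes that fold, process, sense and cut collagen were read in fibroblasts from lists of the pathway. They were read in the class as a whole and not inside its clusters, whose shares differed between libraries. Of 18 folding and modification genes, 17 were measured for AN-GelMA over GelMA: 5 were higher (P4ha1, P4ha2, P4ha3, Plod1 and Plod2) and 1 lower, against 10.4% and 19.9% of all genes. In GelMA over untreated 0 of 17 were higher and 5 lower, against 18.6% and 10.2%, and in AN-GelMA over untreated 0 of 18 passed either way, against 5.02% and 6.39%; the medians were 0.40, -0.25 and -0.04. P4ha1, P4ha2 and P4ha3 are catalytic chains of the prolyl hydroxylases that stabilize the helix. P4ha1 was 344, 130 and 288 CPM, P4ha2 434, 176 and 407 CPM, and P4ha3 267, 130 and 287 CPM. The lysyl hydroxylase Plod2 was 332, 122 and 261 CPM. In each of these GelMA was well below libraries that were closer to each other. The collagen chaperone Serpinh1 was 711, 603 and 787 CPM and did not pass 1.5 times.

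Of 18 processing and fibril assembly genes, 16 were measured, with 5 higher and 2 lower for AN-GelMA over GelMA, 2 and 4 for GelMA over untreated, and 1 and 0 for AN-GelMA over untreated. The shares of all genes called are those given for the folding list, and they apply to the receptor and collagenase counts too; 2 of 16 higher and 2 of 16 lower lie below theirs. The crosslinking oxidase Lox was 345, 145 and 298 CPM, a ratio of 1.03 (0.75 to 1.33) for AN-GelMA over GelMA, and its relative Loxl3 239, 112 and 197 CPM. Loxl4 went the other way at 34.5, 88.2 and 48.0 CPM. The procollagen protease Tll1 was 41.4, 23.6 and 41.9 CPM. Among 7 receptor and uptake genes 1 was higher (Itga10) and 1 lower (Itga1) for AN-GelMA over GelMA, 2 and 0 for GelMA over untreated, and 0 and 0 for AN-GelMA over untreated. Itga1, an integrin collagen receptor chain, was 39.9, 87.0 and 41.1 CPM, Itga10 35.3, 27.3 and 42.3 CPM, Ddr1 36.8, 59.6 and 39.9 CPM, and Itga11 351, 391 and 334 CPM. Of 4 measured collagenases only Mmp13 passed, at 14.6, 37.3 and 6.92 CPM from 19, 30 and 17 UMIs, and it is named for the count. Mmp2 was 779, 650 and 945 CPM, Mmp14 478, 587 and 466 CPM and Ctsk 130.5, 143 and 117 CPM.

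Vessel walls showed the opposite type IV pattern. In blood endothelium, 393, 433 and 362 cells, Col4a1 was 2666, 1692 and 2760 CPM and Col4a2 940, 642 and 963 CPM in untreated, GelMA and AN-GelMA. GelMA was lowest for both, where in fibroblasts it had been highest. The type IV sum had a ratio of 0.67 (0.55 to 0.79) for AN-GelMA over GelMA, -0.62 (-0.74 to -0.51) for GelMA over untreated and 0.05 (-0.06 to 0.15) for AN-GelMA over untreated. Col15a1 was 524, 296 and 623 CPM and Col18a1 648, 358 and 572 CPM, again lowest in GelMA.

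Col13a1, a transmembrane collagen of adhesion sites, separated all 3 endothelial libraries. It was 103 CPM untreated, 51.9 CPM in GelMA and 293.5 CPM in AN-GelMA, from 45, 21 and 114 UMIs in 5.60%, 2.54% and 10.2% of the cells. Its ratio was 2.50 (1.82 to 3.25) for AN-GelMA over GelMA and 1.51 (1.00 to 2.04) for AN-GelMA over untreated. In keratinocytes, shown for comparison, 0.258%, 0.260% and 0.152% of cells had a UMI. Their medians were 1356, 1648 and 1418 UMIs per cell against 901, 801 and 923.5 in endothelium. Fibrillar chains were low, with Col1a1 at 216, 294 and 201 CPM, Col1a2 at 133, 183 and 139 CPM and Col3a1 at 117, 153 and 142 CPM.

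Of 15 members measured in endothelium for AN-GelMA over GelMA, 5 were higher (Col4a1, Col13a1, Col15a1, Col18a1 and Col6a2) against 13.3% of all genes, and 1 lower (Col12a1) against 16.3%. In GelMA over untreated 1 of 13 was higher (Col5a2) against 16.9% and 4 lower (Col4a1, Col13a1, Col15a1 and Col18a1) against 12.1%. For AN-GelMA over untreated 4 of 13 were higher (Col13a1, Col5a2, Col6a1 and Col6a2) against 10.1% and 0 lower against 8.67%. The higher share of 5 in 15 lies above its background, but rests on few genes of 1 library each. Pericyte markers, 12 with a probe, summed to 1177, 798 and 1110 CPM in these cells, with 3, 4 and 4 at 0, and hair-forming markers to 59.7, 1161 and 33.5 CPM. Their part in the result was not tested.

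Pericytes or smooth muscle cells, only 101, 79 and 64 cells, had lower levels of most measured collagens in GelMA than in the other libraries. The fibrillar sum was 8894, 2984 and 8437 CPM, a ratio of 1.5 (1.29 to 1.71) for AN-GelMA over GelMA, -1.58 (-1.78 to -1.38) for GelMA over untreated and -0.08 (-0.22 to 0.07) for AN-GelMA over untreated. The type VI sum was 4685, 1636 and 4636 CPM and the type IV sum 4008, 1982 and 3665 CPM. Col1a1 was 3596, 1037 and 3345 CPM, Col1a2 2059, 541.5 and 1722 CPM, Col3a1 1299, 783 and 1574 CPM, Col5a1 631, 161 and 541 CPM and Col5a3 952, 242 and 885.5 CPM. Col4a1 was 2891, 1371 and 2410 CPM and Col4a2 1089, 438 and 1218 CPM. The type VI chains stood at 1839, 438 and 1783 CPM for Col6a1, 1912, 691 and 1759 CPM for Col6a2 and 869, 461 and 996 CPM for Col6a3. Col18a1, at 705, 576 and 738 CPM, stayed within 1.5 times.

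Of 15 members measured in pericytes for AN-GelMA over GelMA 12 were higher, against 20.6% of all genes, and 0 lower, against 18.3%. In GelMA over untreated cells 0 of 16 were higher, against 18.2%, and 12 lower, against 24.3%. For AN-GelMA over untreated 0 of 14 were higher, against 15.1%, and 1 lower (Col15a1), against 17.4%. Other markers differed alongside. Keratinocyte markers summed to 375, 3352 and 910 CPM and hair-forming markers to 73.2, 1590 and 0 CPM, while fibroblast markers summed to 2498, 1048 and 2927 CPM with 3, 7 and 3 of 16 at 0. The class's own 12 markers were level, at 13090, 12610 and 12670 CPM with none at 0. The part of the other markers in the difference was not tested.

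**Figure D4:**
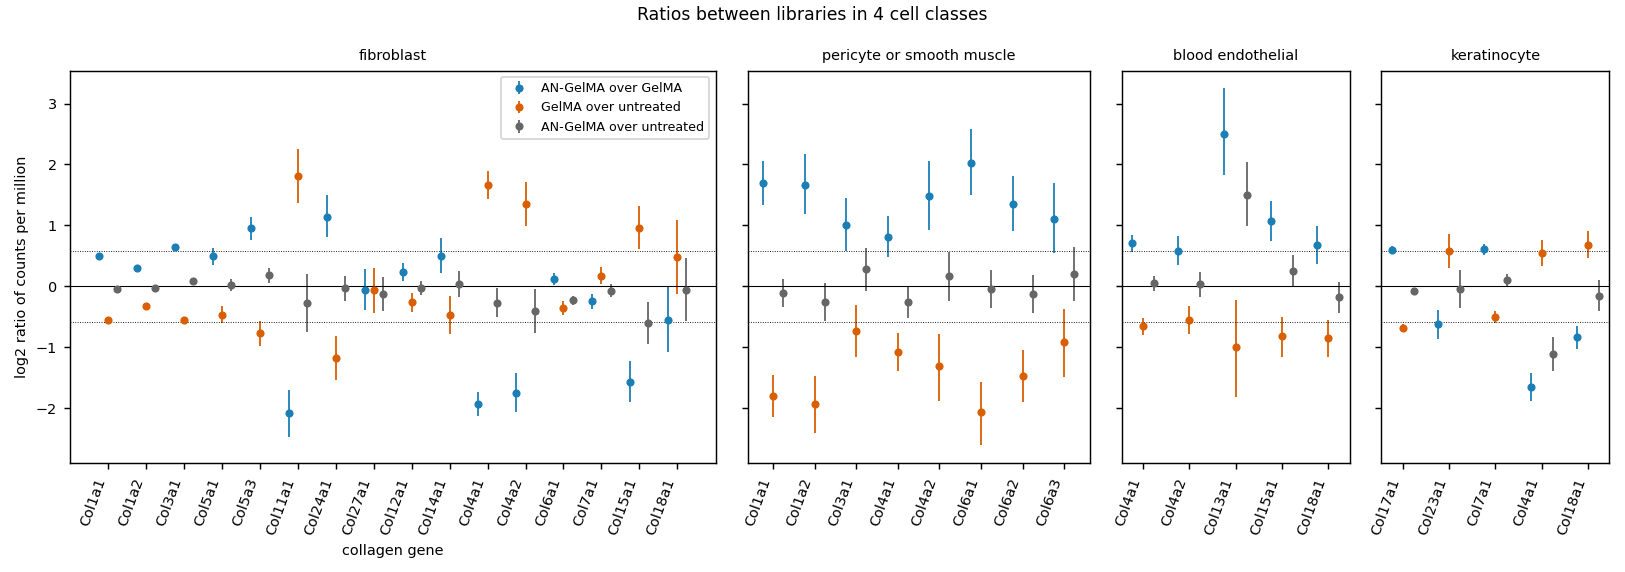
Log2 ratios of CPM between libraries for named collagen genes in 4 cell classes; bars are exact 95% counting intervals and dotted lines mark 1.5 times. For AN-GelMA over GelMA Col4a1 and Col15a1 lie below 0 in fibroblasts and above 0 in endothelium, and all plotted pericyte genes lie above 0.

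Keratinocytes carried the collagens that anchor epidermis. Col17a1, the hemidesmosome collagen, was 900 CPM untreated, 562 CPM in GelMA and 852 CPM in AN-GelMA, and Col7a1 was 314, 222 and 338 CPM. The transmembrane sum, nearly all of it Col17a1, had a ratio of 0.53 (0.48 to 0.58) for AN-GelMA over GelMA and -0.61 (-0.67 to -0.55) for GelMA over untreated. These ratios reversed in the basal cluster led by Krt14, Krt15 and Itgb4 (665, 794 and 1219 cells). There Col17a1 was 2286, 2665 and 2230 CPM and Col7a1 879, 1105 and 904 CPM, highest in GelMA, and the transmembrane sum had ratios of -0.35 (-0.42 to -0.29) and 0.32 (0.25 to 0.40). That cluster was 28.6%, 17.2% and 30.85% of keratinocytes, so the class value in GelMA went with a smaller basal share.

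In the small cluster led by Mmp13, Mmp9 and Krt6a (45, 31 and 60 cells), Col7a1 was 1267, 1393 and 2099 CPM and Col17a1 2293, 2076 and 2579 CPM. Under 50 cells in 2 libraries, no ratio was taken there. Col23a1, another transmembrane chain, was 31.8, 47.5 and 30.9 CPM in all keratinocytes. In the basal cluster it was 90.7, 305 and 91.6 CPM, a ratio of 1.75 (1.41 to 2.11) for GelMA over untreated and 0.01 (-0.37 to 0.41) for AN-GelMA over untreated.

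Another cluster, led by Tbx1, Lhx2 and Krt15 (285, 1205 and 232 cells), held 153 of 242, 574 of 813 and 70 of 188 keratinocyte Col4a1 UMIs, most of them in untreated and GelMA but not in AN-GelMA. It was 12.3%, 26.1% and 5.87% of keratinocytes. Col4a1 was 557, 389 and 244 CPM there against 57.1, 83.2 and 26.5 CPM in all keratinocytes, so GelMA was highest in the class and not in the cluster. Col4a2 was 22.2, 32.65 and 11.7 CPM in the class. Col16a1 in this cluster was 69.2, 398 and 38.4 CPM, and Col18a1 98.3, 281 and 97.7 CPM, high in GelMA alone. In the class Col16a1 was 51.9, 88.4 and 47.2 CPM and Col18a1 48.6, 78.1 and 43.7 CPM.

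**Figure D5:**
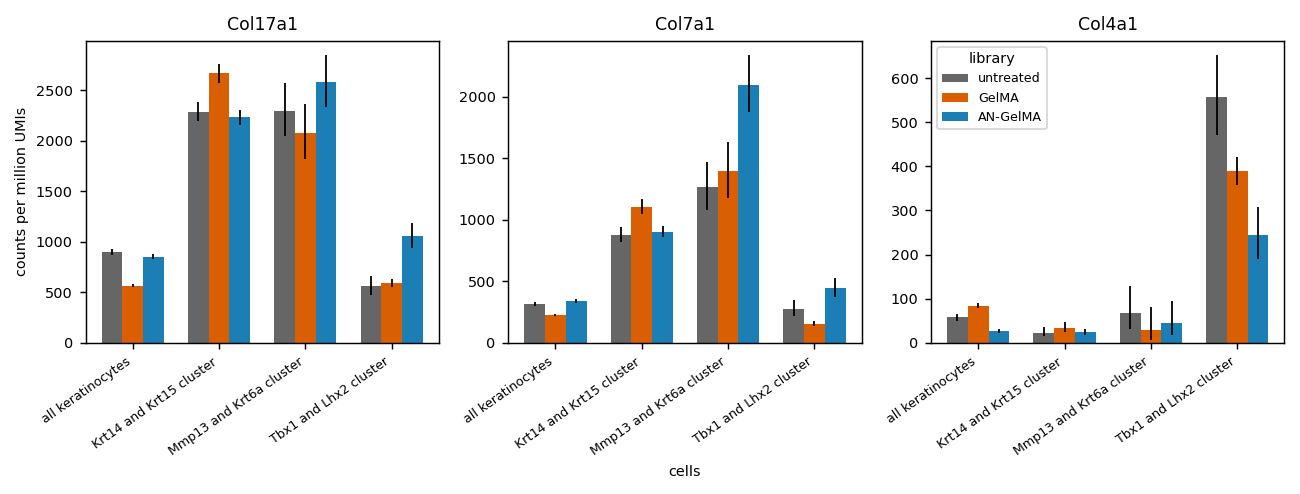
CPM of Col17a1, Col7a1 and Col4a1 in all keratinocytes and in 3 of their clusters; bars are libraries from 0 and error bars exact 95% counting intervals. In all keratinocytes GelMA is lowest for Col17a1 and Col7a1, while in the Krt14 and Krt15 cluster it is highest.

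Of 33 members measured in keratinocytes for AN-GelMA over GelMA, 11 were higher, against 6.83% of all genes, and 10 lower, against 19.8%. For GelMA over untreated 5 of 31 were higher (Col16a1, Col18a1, Col8a1, Col9a2 and Col28a1), against 16.2%, and 11 lower, against 6.98%. For AN-GelMA over untreated 0 of 29 were higher, against 2.12%, and 6 lower, against 5.69%. Of the 11 higher in AN-GelMA than in GelMA, 7 were fibrillar and 2 type VI chains at the low levels described above. These were led by Col1a1 at 160.1, 87.6 and 161 CPM, Col1a2 at 129.7, 67.9 and 122 CPM and Col3a1 at 115, 53.8 and 111 CPM. Col5a1, Col5a3, Col27a1, Col6a1 and Col6a2 were between 3.48 and 33.7 CPM. Col5a2, Col11a2, Col4a5, Col4a6, Col9a3, Col12a1, Col14a1, Col20a1 and Col6a3 completed the members with 100 UMIs, between 4.197 and 37.5 CPM. Col4a5 and Col4a6, divergent neighbours on chromosome X, were 13.0, 16.2 and 12.4 CPM and 27.8, 29.0 and 23.0 CPM, within 1.5 times.

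Skeletal muscle held Col13a1 at 364, 56.8 and 404 CPM, Col26a1 at 171, 50.3 and 165 CPM, Col23a1 at 111, 70.45 and 140.2 CPM, and Col20a1 at 42.85, 58.95 and 66.0 CPM. Col13a1 is known from the neuromuscular junction. A cluster led by the developmental myosins Myh3 and Myh8 and the receptor chain Chrng (53, 28 and 58 cells) held 70 of 85, 25 of 79 and 95 of 98 of its UMIs, at 780, 541 and 897 CPM. That cluster was 30.5%, 3.44% and 34.9% of muscle cells, and the other was led by the adult fibre genes Ttn, Myh2 and Myh4. Col1a1, Col1a2 and Col3a1 in muscle were 227, 123 and 57.7 CPM, 180, 71.9 and 53.6 CPM, and 103, 61.1 and 57.7 CPM, near the levels of epithelial classes.

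Schwann cells (80, 72 and 41 cells) held Col1a2 at 668, 597 and 642 CPM and Col3a1 at 703, 597 and 745 CPM. Col19a1 there was 129, 94.3 and 103 CPM and Col26a1 223, 110 and 128 CPM, on 4 to 19 UMIs per library. Col28a1, a collagen known from peripheral nerve, was 23.4, 110 and 77.1 CPM from 2, 7 and 3 UMIs. Col27a1 in T, NK or innate lymphoid cells was 98.35, 339 and 102 CPM from 13, 42 and 22 UMIs, in 9.35%, 24.2% and 8% of cells. In macrophages 0.152%, 0.503% and 0.195% of cells had a Col27a1 UMI, at medians of 987.5, 743 and 880 UMIs against 772, 829.5 and 715.5 in the lymphoid cells. The 9 members under 100 UMIs in all were Col2a1, Col4a3, Col9a1, Col9a2, Col22a1, Col6a4, Col6a5, Col8a2 and Col10a1, with 31 to 89 UMIs.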

How the data were processed

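The members, lists and cell markers were chosen with earlier results of these data known. The authors deposited UMI count matrices (GEM-X Flex v2 per the labels' protocols) made by Cell Ranger, version 10.0.0 per their file headers, against GRCm39, also listed as mm39, per the submitters' processing notes. Cells needed 400 UMIs, 250 genes and at most 10% mitochondrial UMIs. Scrublet called 0 doublets, so the 5% with the highest score per library were removed (302, 565 and 481), a choice made with that known. The 2000 most variable genes other than collagens gave 30 components, 15 neighbours and Leiden clusters at resolution 1 (scanpy 1.11.5), named from marker scores of at least 1.5 and 0.5 above the next list, with 3 markers. Pairs of libraries shared 94 to 135 barcodes.

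Counts were summed by class and library. Levels have exact Poisson intervals and ratios exact conditional binomial intervals (scipy 1.17.1) at 95%; a count of 0 was taken as 3 UMIs in a ratio. Classes with 50 cells in both libraries were compared, with no test of conditions. The ratio calculation was tested on simulated data. Alternatives were the settings given in the closing section, with scale factors from edgeR 4.0.16 and DESeq2 1.42.0. Named genes had 100 UMIs in a class described, plus any named for a count. The file names of the AN-GelMA library carry the word heat, which the labels do not explain.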

Additional observations from a re-analysis of the deposited data

Results flagged for a closer look

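Several collagen counts were at least 1.5 times higher in 1 cell class and at least 1.5 times lower in another under the same comparison, with 100 or more UMIs in each and intervals on either side of 0. The differences between classes were not tested, and all of them share the GelMA library.

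For AN-GelMA over GelMA, Col15a1 was 1.07 (0.75 to 1.40) in blood endothelium and -1.56 (-1.89 to -1.23) in fibroblasts, 2.64 apart on the log2 scale. Col18a1 was 0.67 in endothelium and -0.84 in keratinocytes, 1.51 apart. Col4a1 was 0.81 in pericytes and -1.93 in fibroblasts, 2.74 apart, and Col4a2 1.48 and -1.75, 3.23 apart. Col1a1 was 1.69 in pericytes and -1.23 (-1.50 to -0.95) in macrophages, 2.92 apart, and Col1a2 1.67 and -1.21, 2.88 apart. Col3a1 was 1.04 in keratinocytes and -0.90 in macrophages, 1.94 apart. Fibrillar UMIs in macrophages and keratinocytes are not read as expression, so these 3 results and the macrophage value below describe counts in those classes only. Col23a1 was 0.99 in skeletal muscle and -1.15 in fibroblasts, 2.14 apart. The fibroblast ratio of Col23a1 reversed in the Postn cluster, and that of Col15a1 did not hold there, as given above. The cluster mix of fibroblasts, of keratinocytes, of macrophages and of muscle also differed between libraries.

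For GelMA over untreated, Col15a1 was 0.96 in fibroblasts and -0.82 in endothelium, 1.79 apart, and Col18a1 0.69 in keratinocytes and -0.86 in endothelium, 1.54 apart. Col4a1 was 1.66 in fibroblasts and -1.08 in pericytes, 2.73 apart, and Col4a2 1.35 and -1.31, 2.66 apart. Col1a1 was 0.69 in macrophages and -1.79 in pericytes, 2.48 apart.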

How the results depend on the processing

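No paired analysis was possible because the labels pair no samples and 1 library stands for each group. The GelMA ratios of summed collagens kept their sign under all 8 other settings tried in fibroblasts (fibrillar, FACIT), endothelium (type IV) and keratinocytes (transmembrane); the endothelial values ranged from 0.62 to 0.73 for AN-GelMA over GelMA and from -0.69 to -0.54 for GelMA over untreated. Values outside the counting interval of the reported value follow; the cause was not tested.

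For the fibrillar sum, AN-GelMA over GelMA was 0.44 with collagen genes among the variable genes, 0.41 with doublets kept, 0.58 with at least 1000 UMIs per cell, 0.38 with cells thinned to 500 UMIs, 0.42 with a class per cell, 0.67 with TMM and 0.64 with DESeq2 factors. GelMA over untreated was -0.44, -0.40, -0.54 and -0.41 under the first 4 of these and -0.60 with TMM and DESeq2 factors. AN-GelMA over untreated was 0.04 with 1000 UMIs, -0.03 when thinned or with a class per cell, 0.07 with TMM and 0.03 with DESeq2 factors. The FACIT sum was 0.38 and 0.35 with TMM and DESeq2 factors for AN-GelMA over GelMA, -0.33 with both for GelMA over untreated, and -0.16 when thinned for AN-GelMA over untreated. The keratinocyte transmembrane sum for AN-GelMA over GelMA was 0.47 with 1000 UMIs, 0.40 when thinned, and 0.59 and 0.61 with TMM and DESeq2 factors; for GelMA over untreated it was -0.29 when thinned and -0.70 with a class per cell; for AN-GelMA over untreated it was -0.18, 0.11, -0.15, -0.02 and -0.01 with 1000 UMIs, thinning, a class per cell, TMM and DESeq2 factors.

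Single clusters were added after seeing the data. In the Pi16 cluster the fibrillar sum was 0.43 and -0.42 and the FACIT sum 0.34, -0.57 and -0.23; in the Postn cluster the fibrillar sum was 0.20, -0.15 and 0.05, and the FACIT sum 0.18 for GelMA over untreated and 0.32 for AN-GelMA over untreated. In the Krt14 and Krt15 cluster the transmembrane sum reversed in sign, to -0.35 for AN-GelMA over GelMA and to 0.32 for GelMA over untreated.

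Counts of fibroblast collagens are small numbers. For AN-GelMA over GelMA, 3 higher became 5 when thinned, without a low-count filter or in the Pi16 cluster, and 7 with TMM or DESeq2 factors; 6 lower became 12 without the filter and 3 in the Postn cluster. For GelMA over untreated, 7 higher became 4 with doublets kept, when thinned or in the Postn cluster, and 11 without the filter; 4 lower became 8 with TMM or DESeq2 factors, 10 without the filter, and 2 with 100 UMIs or in the Postn cluster. For AN-GelMA over untreated, 1 higher became 2 when thinned, with a class per cell or in the Postn cluster, 3 without the filter and 0 with 100 UMIs; 4 lower became 1 when thinned or with 100 UMIs, 10 without the filter and 2 in the Pi16 cluster. Depth limits members under about 100 UMIs in a class, whose intervals span more than 1.5 times.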
